A study of Mus musculus with 9 samples.

Results

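Extracellular metalloproteases and their inhibitors were followed in the mouse line 3T3-L1, whose fibroblast-like cells become fat cells in culture when induced. The genes were those whose symbols in the array annotation named a matrix metalloproteinase (Mmp), an ADAM, an ADAMTS or ADAMTS-like protein, or a tissue inhibitor of metalloproteinases (Timp). A gene with several probe sets is given by its brightest one over the 9 arrays, and probe sets annotated to more than 1 gene were not used. There were 70 such genes among 18193: 18 MMPs, 28 ADAMs, 15 ADAMTS genes, 5 ADAMTS-like genes and 4 TIMPs. Of these, 33 had a group mean over 6 on the log2 scale in at least 1 group and are described by name, and 37 did not. That share, 47.1%, compares with 56.1% of all genes. Nearest to this limit, Adamtsl2 at 6.01 and Adamts6 at 6.02 lay inside it by their highest group means, and Adamts16 at 5.86 and Adam8 at 5.85 lay outside.

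Total RNA was measured on 9 arrays in 3 groups of 3. In the first, adipocytes had received an siRNA to PPAR gamma, the fat-forming nuclear receptor. In the second, they had received a non-targeting siRNA. The third was undifferentiated preadipocytes of the same line. Both adipocyte groups had been induced with a mixture of insulin at 10 µg/ml, dexamethasone at 1 µM and the phosphodiesterase inhibitor IBMX at 0.5 mM, and were transfected 14 days after induction. For this they were taken off the dish with trypsin and collagenase, electroporated and seeded again, and the labels give no such step for preadipocytes. Differentiation, the enzyme treatment, electroporation and siRNA therefore cannot be told apart in comparisons with preadipocytes. Which amount of siRNA each array had, and the time to harvest, are not given by the labels. The submitters describe the replicates as technical, so all p-values rest on the spread of these samples alone, which may be technical.

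Array values ran from 2.41 to 14.59, with array medians between 4.82 and 4.89. Pearson correlations between arrays lay between 0.994 and 0.998 within groups and between 0.928 and 0.973 across groups. Pparg, the siRNA target, stood at 9.59 ± 0.05 in PPAR gamma siRNA adipocytes, 12.79 ± 0.12 in control siRNA adipocytes and 8.22 ± 0.12 in preadipocytes (SD, n = 3). All 5 measured fat cell markers and all 5 measured preadipocyte markers changed in each comparison. The linear signals of the preadipocyte and fibroblast markers summed to between 15143 and 22379 with PPAR gamma siRNA, between 4143 and 5619 with control siRNA, and between 45389 and 50540 in preadipocytes. The sums of the fat cell markers were 27953 to 29106, 75817 to 81716 and 5356 to 5761 in the same groups. In RNA of whole cultures, fewer cells of a type and less RNA per cell cannot be told apart. RNA integrity was read from Actb as its 3' minus its 5' probe set value, which was 0.79 ± 0.40 with PPAR gamma siRNA, 1.04 ± 0.22 with control siRNA and 0.30 ± 0.06 in preadipocytes (SD, n = 3). The part of either in the results below was not tested beyond the settings given with them.

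MMPs are zinc proteases that are made as inactive precursors and cut collagens, proteoglycans and other matrix proteins. ADAMs sit in the cell membrane and release the outer parts of other membrane proteins, ADAMTS proteases are secreted and cut proteoglycans or procollagens, and ADAMTS-like proteins lack the protease domain. TIMPs bind the active sites of these enzymes. Fat cells round up and exchange a fibrillar collagen matrix for a basement membrane as they mature, and the membrane-type protease MMP14 is needed in mice for normal white fat development.

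With PPAR gamma siRNA, 20 of the 70 genes were higher and 4 lower than with control siRNA, or 28.6% and 5.71%, where 19.9% and 16.1% of all genes were called higher and lower (limma, adjusted p under 0.05). In both directions together 24 genes were called, 34.3%, beside 35.9% of all genes. The 4 TIMPs and 8 of the 15 ADAMTS genes were higher, against 5 of the 18 MMPs, 2 of the 28 ADAMs and 1 of the 5 ADAMTS-like genes. In control siRNA adipocytes 13 genes were higher and 20 lower than in preadipocytes, 18.6% and 28.6%, beside 27.1% and 24.7% of all genes, and the total of 33 was 47.1% beside 51.8%. PPAR gamma siRNA adipocytes had 10 genes higher and 20 lower than preadipocytes, 14.3% and 28.6%, beside 19.6% and 16.9% of all genes, and the total of 30 was 42.9% beside 36.5%. The median log2 changes over the 70 genes were 0.04, 0.06 and 0.03 in these comparisons, and -0.01, 0.09 and 0.07 over all genes. Changes of at least 2-fold were called for 16 (22.9%), 21 (30%) and 13 (18.6%) of the 70, where 10.3%, 19.5% and 9.31% of all genes were called. The arrays of the groups compared did not overlap for 28 (40%), 38 (54.3%) and 40 (57.1%) of the 70 genes, beside 44.4%, 61.5% and 49.8% of all genes. The comparisons share groups, so their counts are not independent of each other.

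**Figure D1:**
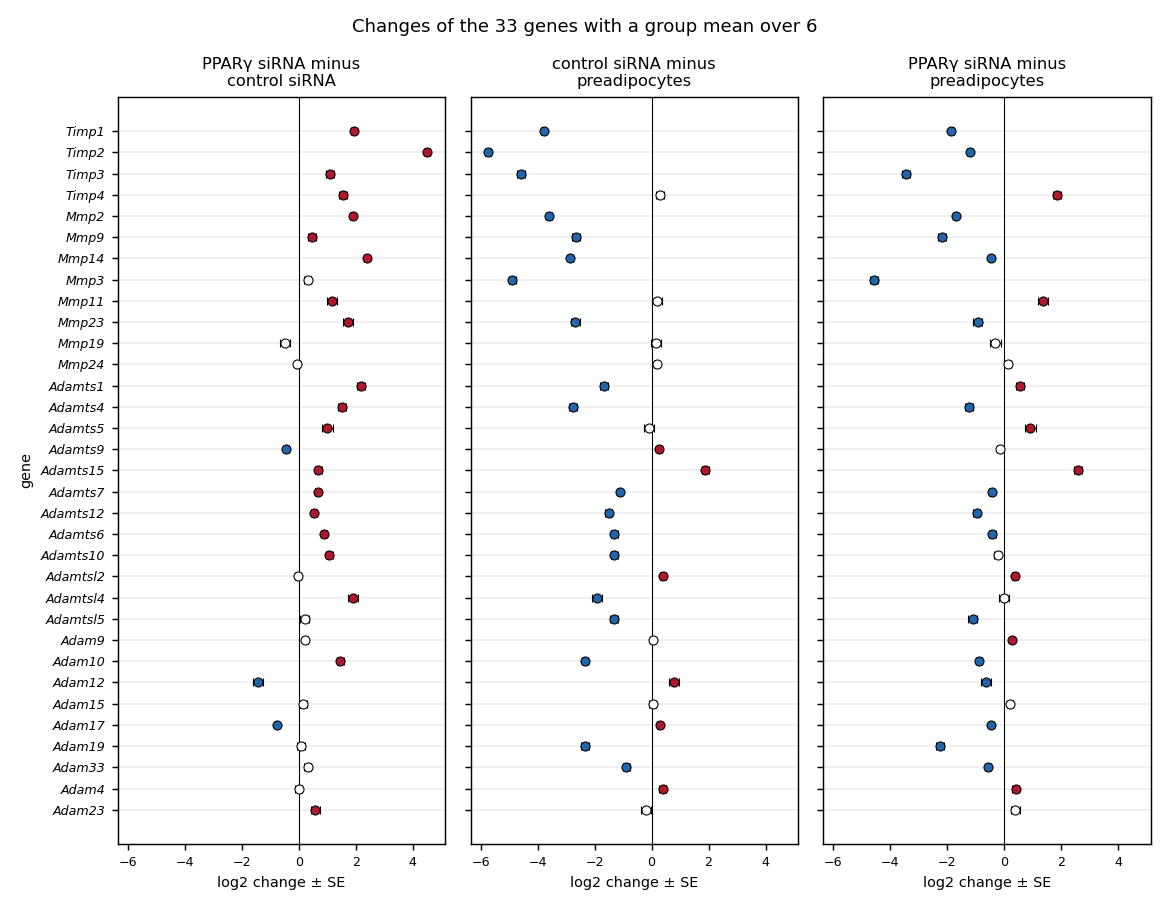
Log2 changes ± SE of the 33 genes with a group mean over 6, one gene a row, for PPAR gamma siRNA minus control siRNA, control siRNA minus preadipocytes and PPAR gamma siRNA minus preadipocytes (3 arrays a group). Red points were called higher, blue points lower and white points were not called; Timp2 has the largest change in the first 2 panels, at 4.50 and -5.72.

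The inhibitors were all higher with PPAR gamma siRNA than with control siRNA, and Timp1, Timp2 and Timp3 were lower in control siRNA adipocytes than in preadipocytes. Timp2, which besides inhibiting MMPs joins MMP14 on the cell surface to activate the precursor of MMP2, stood at 11.56, 11.94 and 11.60 in PPAR gamma siRNA adipocytes, 7.25, 7.19 and 7.17 in control siRNA adipocytes and 12.94, 12.91 and 12.93 in preadipocytes. The 3 groups did not overlap. It was 22.6-fold higher with PPAR gamma siRNA than with control siRNA (log2 change 4.50 ± 0.10, SE, adjusted p = 3.52e-10) and remained below preadipocytes by a log2 change of -1.23 ± 0.10 (adjusted p = 3.54e-06). Of its 6 probe sets, 5 gave the same call between the siRNAs, with changes of 2.69 to 4.86, and the dimmest, with group means of 3.52 to 3.85, did not.

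Timp1, an inhibitor that many growth factors and cytokines induce, stood at 8.71, 8.83 and 8.71 with PPAR gamma siRNA, 6.88, 6.83 and 6.76 with control siRNA and 10.76, 10.61 and 10.47 in preadipocytes. The PPAR gamma siRNA arrays lay between the other two groups, 1.92 ± 0.09 above control siRNA (adjusted p = 4.13e-08) and at a log2 change of -1.87 ± 0.09 from preadipocytes (adjusted p = 5.14e-08). Timp3, which is held in the matrix and also inhibits ADAM17 and several ADAMTS proteases, stood at 6.50, 6.75 and 6.74 with PPAR gamma siRNA, 5.63, 5.48 and 5.54 with control siRNA and 10.36, 10.23 and 9.78 in preadipocytes. Control siRNA adipocytes were 23.9-fold below preadipocytes. PPAR gamma siRNA adipocytes stood 1.11 ± 0.14 above control siRNA (adjusted p = 7.14e-05) and -3.46 ± 0.14 from preadipocytes (adjusted p = 8.31e-09), so their Timp3 level was nearer to that of control siRNA adipocytes. One of the 4 Timp3 probe sets was not called between the siRNAs, at 0.33 (adjusted p = 0.092).

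Timp4, the TIMP of most restricted tissue range, had another order of levels. Its values were 6.38, 6.85 and 6.77 with PPAR gamma siRNA, 5.09, 5.13 and 5.13 with control siRNA and 5.04, 4.69 and 4.72 in preadipocytes. PPAR gamma siRNA adipocytes were above both control siRNA adipocytes, by 1.55 ± 0.13 (adjusted p = 3.00e-06), and preadipocytes, by 1.85 ± 0.13 (adjusted p = 8.51e-07). Control siRNA and preadipocytes differed by 0.30 ± 0.13, which did not pass the test (adjusted p = 0.091). It passed without PPAR gamma siRNA 1 (adjusted p = 0.0401), without preadipocytes 1 (adjusted p = 0.0343) and with the mean of both Timp4 probe sets (0.93, adjusted p = 4.13e-05). The second probe set gave group means of 7.58, 5.05 and 3.48, and both rose with the siRNA. In the RefSeq gene table Timp1, Timp3 and Timp4 each lie within a synapsin gene, Syn1, Syn3 and Syn2, and Timp2 does not.

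**Figure D2:**
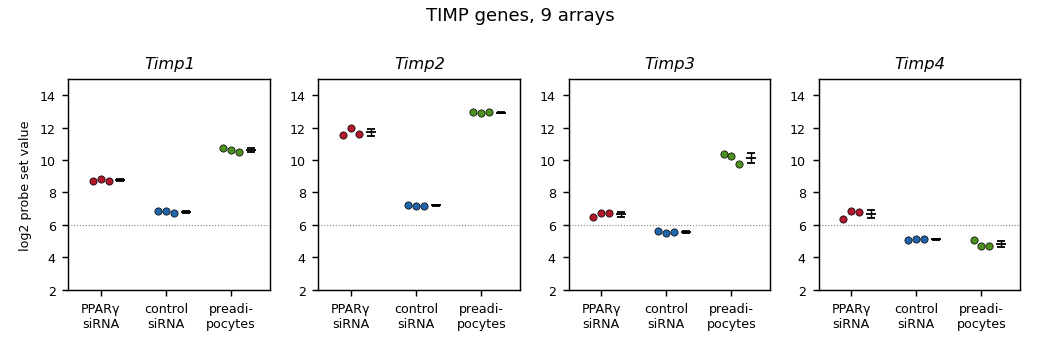
Log2 probe set values of the 4 TIMP genes in each array, with PPAR gamma siRNA adipocytes, control siRNA adipocytes and preadipocytes from left to right. Points are arrays, the bar beside them is the mean ± SD (n = 3) and the dotted line is the limit of 6; Timp4 alone is highest with PPAR gamma siRNA, at 6.67 ± 0.25.

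Among the MMPs, those that act with TIMP2 at the cell surface were far lower in control siRNA adipocytes than in preadipocytes and higher with PPAR gamma siRNA. Mmp14, the membrane-type collagenase, stood at 11.91, 11.98 and 12.12 with PPAR gamma siRNA, 9.61, 9.68 and 9.58 with control siRNA and 12.47, 12.52 and 12.44 in preadipocytes. It was 5.21-fold higher with PPAR gamma siRNA than with control siRNA (2.38 ± 0.08, adjusted p = 3.87e-09) and within a log2 change of -0.47 ± 0.08 of preadipocytes (adjusted p = 0.00109). Its 3 probe sets agreed in all calls, with changes of 2.38 to 2.59 between the siRNAs. For PPAR gamma siRNA against preadipocytes they ranged from -0.94 to -0.47. Mmp2, gelatinase A, which cuts denatured collagen and basement membrane collagen, stood at 11.78, 11.98 and 11.90 with PPAR gamma siRNA, 10.08, 10.11 and 9.80 with control siRNA and 13.60, 13.63 and 13.57 in preadipocytes. No arrays overlapped between groups. The change between the siRNAs was 1.89 ± 0.10 (adjusted p = 7.35e-08), and PPAR gamma siRNA adipocytes were still 3.28-fold below preadipocytes (adjusted p = 1.66e-07).

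Mmp9, gelatinase B, stood at 6.21, 6.59 and 6.69 with PPAR gamma siRNA, 6.06, 5.95 and 6.08 with control siRNA and 8.62, 8.90 and 8.54 in preadipocytes. Both adipocyte groups were far below preadipocytes, at -2.19 ± 0.13 with PPAR gamma siRNA (adjusted p = 2.32e-07) and -2.66 ± 0.13 with control siRNA (adjusted p = 1.20e-08). The difference between the siRNAs was 0.47 ± 0.13 (adjusted p = 0.0205). That call ended without PPAR gamma siRNA 2 (adjusted p = 0.0761), PPAR gamma siRNA 3 (adjusted p = 0.0836) or control siRNA 2 (adjusted p = 0.0724), and without the 2 adipocyte arrays of highest Actb difference, control siRNA 1 and PPAR gamma siRNA 3 (adjusted p = 0.117). A second Mmp9 probe set gave 0.99 between the siRNAs (adjusted p = 0.00023).

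Mmp3, stromelysin 1, which cuts proteoglycans and fibronectin and activates other MMPs, was the MMP with the largest change from preadipocytes. It stood at 5.17, 5.26 and 5.10 with PPAR gamma siRNA, 5.09, 4.72 and 4.79 with control siRNA and 10.02, 9.72 and 9.50 in preadipocytes. Preadipocytes were apart from both adipocyte groups, by -4.57 ± 0.14 for PPAR gamma siRNA (23.8-fold lower, adjusted p = 7.27e-10) and -4.88 ± 0.14 for control siRNA (29.5-fold lower, adjusted p = 1.15e-10). The change between the siRNAs, 0.31 ± 0.14, did not pass the test (adjusted p = 0.129). It passed without control siRNA 1 (0.42, adjusted p = 0.0463). Levels near the array floor can understate a change.

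Mmp11, stromelysin 3, is cut to its active form by furin inside the cell. It stood at 10.06, 9.93 and 10.07 with PPAR gamma siRNA, 8.92, 9.25 and 8.39 with control siRNA and 8.65, 8.81 and 8.52 in preadipocytes. The PPAR gamma siRNA arrays were above all others, by 1.17 ± 0.18 against control siRNA (adjusted p = 0.000302) and 1.36 ± 0.18 against preadipocytes (adjusted p = 9.98e-05). Control siRNA and preadipocyte arrays overlapped (0.19 ± 0.18, adjusted p = 0.405), and without control siRNA 3 that difference passed the test (0.43, adjusted p = 0.0193). Mmp23, a small MMP anchored in the membrane until it is cleaved, stood at 8.29, 8.51 and 8.53 with PPAR gamma siRNA, 7.02, 6.25 and 6.87 with control siRNA and 9.49, 9.32 and 9.35 in preadipocytes. Its groups did not overlap. The change was 1.73 ± 0.17 between the siRNAs (adjusted p = 8.55e-06) and -2.67 ± 0.17 between control siRNA adipocytes and preadipocytes (adjusted p = 8.38e-08).

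By their brightest probe sets, Mmp19 and Mmp24, a membrane-type MMP, were called in no comparison. Mmp19 had group means of 7.24 ± 0.35 with PPAR gamma siRNA, 7.72 ± 0.36 with control siRNA and 7.56 ± 0.08 in preadipocytes. Its difference of -0.48 ± 0.19 between the siRNAs (adjusted p = 0.086) passed without control siRNA 1 (-0.69, adjusted p = 0.00987) and with the Actb difference as a covariate (-0.74, adjusted p = 0.000415). With that covariate the difference of control siRNA from preadipocytes also passed (0.91, adjusted p = 0.00189, against 0.16 without it). The Actb difference was 0.23 to 0.36 in preadipocytes and 0.91 to 1.30 with control siRNA, so covariate and group cannot be fully separated there. The second Mmp19 probe set gave -0.49 in that comparison (adjusted p = 0.0656) and -0.08 between the siRNAs (adjusted p = 0.829). It was called for PPAR gamma siRNA against preadipocytes (-0.57, adjusted p = 0.0487). Mmp24 averaged 6.32 ± 0.04 with PPAR gamma siRNA, 6.36 ± 0.07 with control siRNA and 6.18 ± 0.15 in preadipocytes. For control siRNA against preadipocytes it passed without preadipocytes 3 (0.26, adjusted p = 0.0493) and after renewed quantile normalisation (0.39, adjusted p = 0.00491, against 0.18). There the mean of the Mmp24 probe sets passed too (0.22, adjusted p = 0.023), as did a dimmer probe set alone (0.25, adjusted p = 0.0364).

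**Figure D3:**
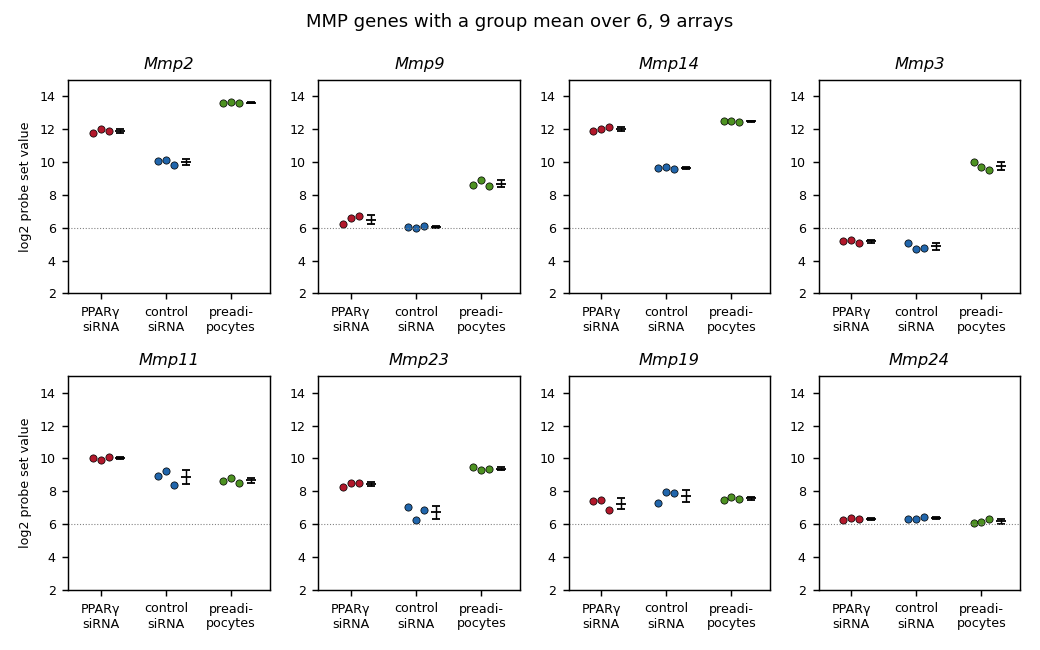
Log2 probe set values of the 8 MMP genes with a group mean over 6 in each array, with PPAR gamma siRNA adipocytes, control siRNA adipocytes and preadipocytes from left to right. Points are arrays, the bar is the mean ± SD (n = 3) and the dotted line is the limit of 6; Mmp14 and Mmp2 are lowest with control siRNA, and Mmp3 is near 5 in both adipocyte groups against 9.75 ± 0.26 in preadipocytes.

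Mmp3 lies in a row of MMP genes on chromosome 9 that in the RefSeq gene table runs Mmp13, Mmp12, Mmp1b, Mmp3, Mmp1a, Mmp10, Mmp8, Mmp20 and Mmp7, with only Mmp27 inserted. Of these 9 measured genes Mmp3 alone had a group mean over 6. Mmp13, collagenase 3, was the only one of the 9 called between the siRNAs and is named here after its values were seen. It stood at a group mean of 3.20 ± 0.18 with PPAR gamma siRNA, 5.24 ± 0.23 with control siRNA and 3.68 ± 0.01 in preadipocytes. For control siRNA against preadipocytes its direction was opposite to that of Mmp3, at 1.55 ± 0.12 (adjusted p = 7.02e-07). For PPAR gamma siRNA against control siRNA, Mmp13 changed by -2.03 ± 0.12 (adjusted p = 2.12e-07). Its PPAR gamma siRNA arrays were also below preadipocytes, at -0.48 ± 0.12 (adjusted p = 0.0117). Mmp7, matrilysin, was higher than in preadipocytes with control siRNA (0.44 ± 0.11, adjusted p = 0.00739) and with PPAR gamma siRNA (0.36 ± 0.11, adjusted p = 0.0325). Its call with PPAR gamma siRNA ended with a replicate block (adjusted p = 0.0572), without PPAR gamma siRNA 1 or 2 or without any 1 preadipocyte array (adjusted p from 0.0613 to 0.124).

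The promoters of Mmp3 and Mmp13 are shown because these 2 genes of the row moved in opposite directions in control siRNA adipocytes against preadipocytes. With PPAR gamma siRNA both were below preadipocytes, at -4.57 for Mmp3 and -0.48 for Mmp13. Both carry a match to the site of AP-1, the Fos and Jun factor long studied in collagenase and stromelysin genes. The 250 bases before the RefSeq start (build GRCm38.p6) were searched on both strands for TGANTCA, whose matches are in capitals, and for AGGTCA repeated after 1 base of any kind, the direct repeat that PPAR and RXR bind. Mmp3 is on the plus strand at chr9:7445572-7445821, with the match at bases -46 to -40 before the start. Mmp13 is on the plus strand at chr9:7272264-7272513, with the match at -35 to -29.
Mmp3: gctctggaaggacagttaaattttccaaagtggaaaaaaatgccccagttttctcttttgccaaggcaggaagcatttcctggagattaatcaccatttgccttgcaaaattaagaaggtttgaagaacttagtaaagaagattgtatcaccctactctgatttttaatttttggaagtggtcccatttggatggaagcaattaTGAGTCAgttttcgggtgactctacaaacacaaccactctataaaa
Mmp13: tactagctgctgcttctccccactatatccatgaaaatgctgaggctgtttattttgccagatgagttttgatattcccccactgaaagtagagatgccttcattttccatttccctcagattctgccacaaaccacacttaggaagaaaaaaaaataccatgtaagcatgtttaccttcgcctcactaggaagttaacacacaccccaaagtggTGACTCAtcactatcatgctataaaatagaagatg

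The match recurred along the row, in 8 of its 9 genes and not in Mmp8. The other 6 are shown with 12 bases on each side, Mmp1b on the minus strand and the rest on the plus strand, at chr9:7347318-7347348 for Mmp12, chr9:7388101-7388131 for Mmp1b, chr9:7464056-7464086 for Mmp1a, chr9:7502267-7502297 for Mmp10, chr9:7628124-7628154 for Mmp20 and chr9:7692015-7692045 for Mmp7.
Mmp12: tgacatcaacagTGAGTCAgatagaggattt
Mmp1b: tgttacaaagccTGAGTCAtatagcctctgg
Mmp1a: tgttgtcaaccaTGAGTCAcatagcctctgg
Mmp10: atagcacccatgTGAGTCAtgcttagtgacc
Mmp20: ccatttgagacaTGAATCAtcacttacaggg
Mmp7: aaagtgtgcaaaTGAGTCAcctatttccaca
The 41 genes of the 70 with a promoter entry had 46 entries, of which 10, in 10 genes, held the AP-1 letters, beside 6.75% of all 32851 entries. Outside the row they were found in 2 of 32 genes, Adam19 and Adam25. Some of these genes also had promoter entries without the AP-1 letters. These were chr9:7344147-7344396 for Mmp12, chr9:7692091-7692340 for Mmp7, and chr11:46054252-46054501 and chr11:46127654-46127903 for Adam19. The PPAR repeat was in none of the 41 and in 0.0335% of all promoters. The promoter entries of Timp1 to Timp4 and Mmp14 held neither. A match describes the letters of this window only.

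The ADAMTS proteases that cut versican and aggrecan, Adamts1, Adamts4, Adamts5, Adamts9 and Adamts15, did not share one pattern. Adamts1 stood at 11.60, 12.18 and 11.95 with PPAR gamma siRNA, 9.94, 9.50 and 9.71 with control siRNA and 11.35, 11.35 and 11.43 in preadipocytes. Control siRNA arrays were below all others, and Adamts1 was 4.57-fold higher with PPAR gamma siRNA than with control siRNA (2.19 ± 0.15, adjusted p = 4.34e-07). It was also above preadipocytes by 0.53 ± 0.15 (adjusted p = 0.0159), a call that ended without PPAR gamma siRNA 2 (adjusted p = 0.0655), preadipocytes 1 (adjusted p = 0.0525) or preadipocytes 2 (adjusted p = 0.0542). Adamts5, the next gene on chromosome 16 in the RefSeq table, stood at 9.67, 10.42 and 10.25 with PPAR gamma siRNA, 9.36, 8.96 and 8.9997 with control siRNA and 9.38, 9.18 and 9.05 in preadipocytes. It was higher with PPAR gamma siRNA than in either other group, by 1.01 ± 0.18 against control siRNA (adjusted p = 0.00111) and 0.91 ± 0.18 against preadipocytes (adjusted p = 0.00229). Control siRNA arrays and preadipocytes overlapped (-0.10 ± 0.18, adjusted p = 0.696). One dim probe set of the 4 for Adamts5, with group means of 2.82 to 3.17, was not called between the siRNAs. A brighter one, with group means of 9.03, 8.03 and 8.42, was lower with control siRNA than in preadipocytes (-0.39, adjusted p = 0.0448). Another was not called for PPAR gamma siRNA against preadipocytes (0.36, adjusted p = 0.053).

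Adamts4, the first aggrecanase described, stood at 6.38 in each PPAR gamma siRNA array, 4.95, 4.51 and 5.12 with control siRNA and 7.62, 7.57 and 7.68 in preadipocytes. Its groups were separate, with changes of 1.53 ± 0.13 between the siRNAs (adjusted p = 3.45e-06) and -2.76 ± 0.13 between control siRNA adipocytes and preadipocytes (adjusted p = 8.16e-09). Adamts15 stood at 8.04, 8.24 and 8.27 with PPAR gamma siRNA, 7.71, 7.31 and 7.46 with control siRNA and 5.40, 5.78 and 5.65 in preadipocytes. Here the preadipocyte arrays were the lowest, 3.69-fold below control siRNA (adjusted p = 1.82e-07) and 5.96-fold below PPAR gamma siRNA (adjusted p = 4.73e-08), and the siRNAs differed by 0.69 ± 0.13 (adjusted p = 0.00139). Adamts9 was the only ADAMTS gene lower with PPAR gamma siRNA, at 8.98 ± 0.05 against 9.42 ± 0.12 with control siRNA (-0.44 ± 0.09, adjusted p = 0.00204). Preadipocytes had 9.15 ± 0.04, and the call of control siRNA above them (0.27 ± 0.09, adjusted p = 0.025) ended without control siRNA 1 or without any 1 preadipocyte array (adjusted p from 0.0501 to 0.0877). Of the other 2 Adamts9 probe sets, 1 gave -1.34 between the siRNAs (adjusted p = 2.24e-05). That probe set also gave 1.08 for control siRNA against preadipocytes (adjusted p = 6.48e-05). The last was not called in either comparison.

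Adamts7 and Adamts12, which cut the cartilage protein COMP, were lowest with control siRNA. Adamts12 stood at 8.24, 8.33 and 8.44 with PPAR gamma siRNA, 7.80, 7.55 and 8.05 with control siRNA and 9.33, 9.28 and 9.32 in preadipocytes. The change was 0.54 ± 0.12 between the siRNAs (adjusted p = 0.00466) and -1.51 ± 0.12 for control siRNA against preadipocytes (adjusted p = 6.29e-07). Adamts7 stood at 5.86, 5.80 and 5.97 with PPAR gamma siRNA, 5.21, 5.16 and 5.26 with control siRNA and 6.43, 6.32 and 6.23 in preadipocytes. Both genes kept the PPAR gamma siRNA arrays between the other groups, and Adamts7 changed by 0.67 ± 0.09 between the siRNAs (adjusted p = 9.86e-05).

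Adamts6 and Adamts10, a related pair that acts on fibrillin microfibrils and cell adhesion, were also lowest with control siRNA. Adamts10 stood at 7.68, 8.11 and 7.93 with PPAR gamma siRNA, 6.83, 6.99 and 6.67 with control siRNA and 8.31, 8.05 and 8.07 in preadipocytes. PPAR gamma siRNA and preadipocyte arrays overlapped (-0.23 ± 0.13, adjusted p = 0.206), while the siRNAs differed by 1.08 ± 0.13 (adjusted p = 4.60e-05). With the mean of both Adamts10 probe sets, PPAR gamma siRNA adipocytes were below preadipocytes (-0.44, adjusted p = 0.00581). The second probe set alone gave -0.65 there (adjusted p = 0.0115) and was not called between the siRNAs (0.25, adjusted p = 0.34). Adamts6 stood at 5.70, 5.34 and 5.74 with PPAR gamma siRNA, 4.66, 4.71 and 4.76 with control siRNA and 5.92, 6.12 and 6.02 in preadipocytes. It changed by 0.88 ± 0.11 between the siRNAs (adjusted p = 7.77e-05). Its difference of -0.43 ± 0.11 from preadipocytes (adjusted p = 0.0127) lost the call with the mean of both Adamts6 probe sets (-0.24, adjusted p = 0.0835), without preadipocytes 2 (adjusted p = 0.06) and after renewed quantile normalisation (adjusted p = 0.0515).

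The ADAMTS-like proteins bind fibrillin and lack protease activity. Adamtsl4 stood at 7.38, 7.71 and 7.61 with PPAR gamma siRNA, 5.77, 6.02 and 5.19 with control siRNA and 7.48, 7.69 and 7.59 in preadipocytes. Control siRNA arrays were below all others, and PPAR gamma siRNA adipocytes differed from preadipocytes by -0.02 ± 0.18 (adjusted p = 0.961) and from control siRNA by 1.91 ± 0.18 (adjusted p = 6.18e-06). Adamtsl5 stood at 5.95, 6.01 and 5.63 with PPAR gamma siRNA, 5.70, 5.86 and 5.42 with control siRNA and 7.10, 7.11 and 6.73 in preadipocytes. The adipocyte groups overlapped (0.20 ± 0.15, adjusted p = 0.376) and both were below preadipocytes, by -1.12 ± 0.15 with PPAR gamma siRNA and -1.32 ± 0.15 with control siRNA. With the mean of both Adamtsl5 probe sets the siRNAs differed (0.42, adjusted p = 0.00878). Adamtsl2 had 5.999 ± 0.154 with PPAR gamma siRNA, 6.01 ± 0.07 with control siRNA and 5.62 ± 0.15 in preadipocytes. Both its calls above preadipocytes (adjusted p = 0.0183 and adjusted p = 0.0109) ended without preadipocytes 2 (adjusted p = 0.0835 and adjusted p = 0.053), and the first also without PPAR gamma siRNA 1 or 2 or preadipocytes 1 (adjusted p from 0.0571 to 0.0718).

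**Figure D4:**
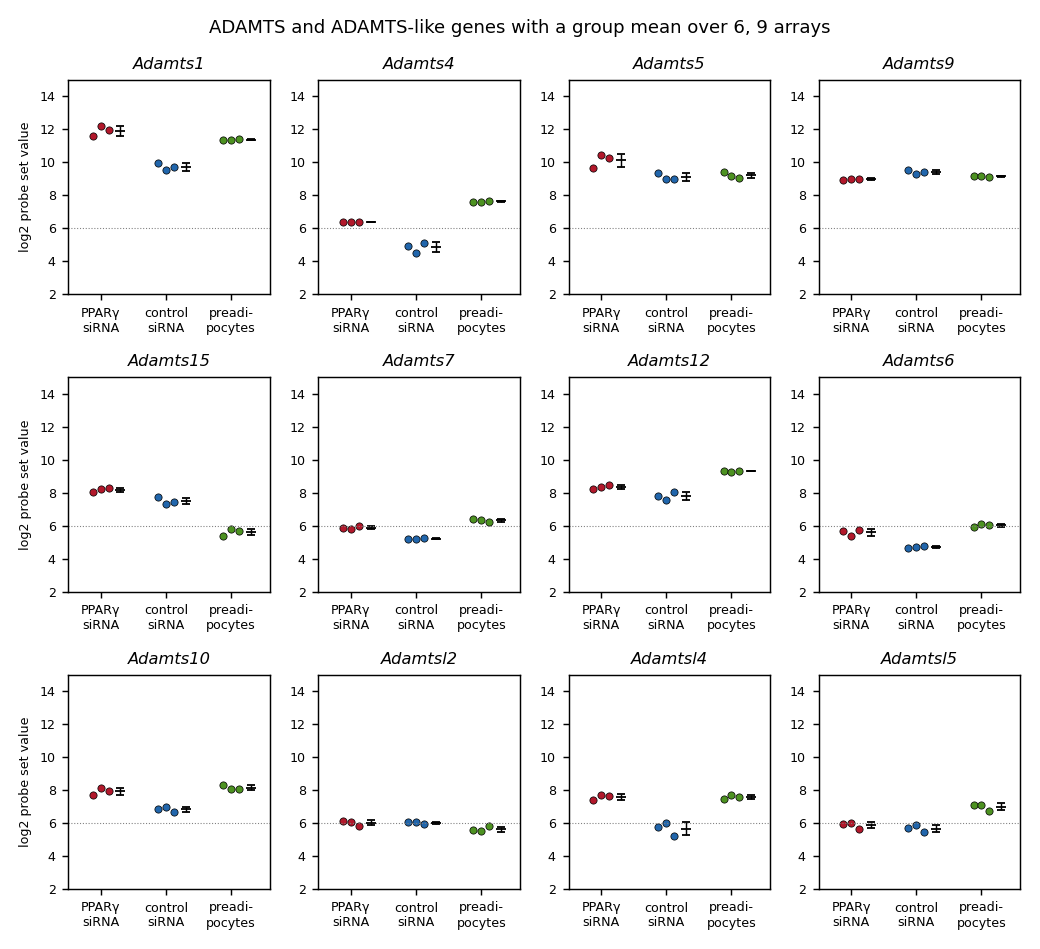
Log2 probe set values of the 12 ADAMTS and ADAMTS-like genes with a group mean over 6 in each array, with PPAR gamma siRNA adipocytes, control siRNA adipocytes and preadipocytes from left to right. Points are arrays, the bar is the mean ± SD (n = 3) and the dotted line is the limit of 6; Adamts15 is lowest in preadipocytes, at 5.61 ± 0.20, and Adamtsl4 is at 7.57 ± 0.17 with PPAR gamma siRNA and 7.59 ± 0.11 in preadipocytes.

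The 2 best known sheddases of the ADAM family moved in opposite directions. Adam10, which releases Notch and cadherin ectodomains, stood at 9.98, 10.09 and 10.20 with PPAR gamma siRNA, 8.50, 8.63 and 8.76 with control siRNA and 10.76, 11.08 and 11.09 in preadipocytes. It was 2.75-fold higher with PPAR gamma siRNA than with control siRNA (1.46 ± 0.11, adjusted p = 1.40e-06), and its 3 brighter probe sets of 4 gave the same call. For control siRNA against preadipocytes those 3 were lower. The dimmest, with group means of 3.98 to 4.24, was called higher there (0.26, adjusted p = 0.0358). Adam17, the enzyme that releases TNF, had 8.35 ± 0.04 with PPAR gamma siRNA, 9.12 ± 0.09 with control siRNA and 8.83 ± 0.01 in preadipocytes. All its PPAR gamma siRNA arrays were below all others, by -0.76 ± 0.08 against control siRNA (adjusted p = 1.65e-05) and -0.48 ± 0.08 against preadipocytes (adjusted p = 0.000686). The dimmest Adam17 probe set was not called between the siRNAs (-0.62, adjusted p = 0.148). Control siRNA was above preadipocytes for Adam17 by 0.29 ± 0.08 (adjusted p = 0.012), which ended with the mean of its 3 probe sets (0.03, adjusted p = 0.858) and with the Actb covariate (adjusted p = 0.34).

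Adam12, or meltrin alpha, which cuts insulin-like growth factor binding proteins, also was lowest with PPAR gamma siRNA. It stood at 7.12, 7.75 and 7.72 with PPAR gamma siRNA, 8.93, 8.73 and 9.26 with control siRNA and 8.17, 8.04 and 8.31 in preadipocytes. The siRNAs differed by -1.44 ± 0.18 (adjusted p = 5.73e-05), and control siRNA was above preadipocytes by 0.80 ± 0.18 (adjusted p = 0.00281, and adjusted p = 0.154 with the Actb covariate). PPAR gamma siRNA was -0.64 ± 0.18 from preadipocytes (adjusted p = 0.0159), a call that ended without PPAR gamma siRNA 1 (-0.44, adjusted p = 0.0518) or preadipocytes 3 (-0.57, adjusted p = 0.064). Adam19, or meltrin beta, a sheddase of neuregulin, stood at 5.30, 5.57 and 5.77 with PPAR gamma siRNA, 5.51, 5.43 and 5.49 with control siRNA and 7.99, 7.91 and 7.49 in preadipocytes. Its adipocyte groups overlapped (0.07 ± 0.14, adjusted p = 0.795) and both stood below preadipocytes, at -2.25 ± 0.14 with PPAR gamma siRNA (adjusted p = 3.54e-07) and -2.32 ± 0.14 with control siRNA (adjusted p = 7.69e-08).

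By their brightest probe sets, the other ADAMs with a group mean over 6 changed less than 2-fold. Adam33 had 6.56 ± 0.12 with PPAR gamma siRNA, 6.24 ± 0.19 with control siRNA and 7.13 ± 0.10 in preadipocytes, with both adipocyte groups lower than preadipocytes (adjusted p = 0.0022 and adjusted p = 4.18e-05). Its difference between the siRNAs, 0.31 ± 0.11 (adjusted p = 0.06), passed without PPAR gamma siRNA 2 (adjusted p = 0.044) or control siRNA 1 (adjusted p = 0.0174). It also passed with dim probe sets left out (adjusted p = 0.0336) and without the 2 adipocyte arrays of highest Actb difference (adjusted p = 0.0469). The mean of both Adam33 probe sets passed too (0.47, adjusted p = 0.00395), and the second alone gave 0.62 (adjusted p = 0.017). Against preadipocytes this second probe set gave -1.09 with control siRNA (adjusted p = 0.000225). With PPAR gamma siRNA it was not called there (-0.47, adjusted p = 0.0577). Adam23, which has no protease activity and binds integrins and LGI proteins, had 8.87 ± 0.36, 8.29 ± 0.15 and 8.49 ± 0.16 in the same groups. Its call between the siRNAs (0.58 ± 0.16, adjusted p = 0.0195) came with overlapping arrays and ended without PPAR gamma siRNA 2 or 3 or control siRNA 2 or 3 (adjusted p from 0.0606 to 0.0867). It was called above preadipocytes only without PPAR gamma siRNA 1 (0.59, adjusted p = 0.00431). A second Adam23 probe set, with group means of 7.05, 6.36 and 6.99, gave 0.69 between the siRNAs (adjusted p = 0.00119). For control siRNA against preadipocytes that probe set gave -0.63 (adjusted p = 0.00136). The third, with group means of 3.82 to 4.09, was not called in any comparison. Adam9 had 11.10 ± 0.08, 10.87 ± 0.07 and 10.83 ± 0.01, and Adam15 had 10.06 ± 0.20, 9.89 ± 0.14 and 9.86 ± 0.06. Adam9 was called above preadipocytes with PPAR gamma siRNA (0.27 ± 0.08, adjusted p = 0.0286), which ended without PPAR gamma siRNA 3 or any 1 preadipocyte array (adjusted p from 0.0677 to 0.0964), and Adam15 was not called. Adam15 passed between the siRNAs with the Actb covariate (0.29, adjusted p = 0.0361). With PPAR gamma siRNA against preadipocytes it gave 0.20 (adjusted p = 0.222), and it passed there without x and s probe sets, which leaves another Adam15 probe set (0.50, adjusted p = 0.00794). Adam9, not called between the siRNAs (0.23 ± 0.08, adjusted p = 0.0565), passed after renewed quantile normalisation (0.30, adjusted p = 0.0146). It also passed with dim probe sets left out (adjusted p = 0.0234), with robust variances and an intensity trend (adjusted p = 0.017) and with averaged probe sets (adjusted p = 0.022). Adam4 had 6.36 ± 0.18, 6.35 ± 0.14 and 5.97 ± 0.19. Both its calls above preadipocytes (adjusted p = 0.0339 and adjusted p = 0.0265) ended without preadipocytes 1 or 2 and without replicate 1 or 2 of the adipocyte group compared (adjusted p from 0.0778 to 0.135), and the first also with a replicate block (adjusted p = 0.0568).

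**Figure D5:**
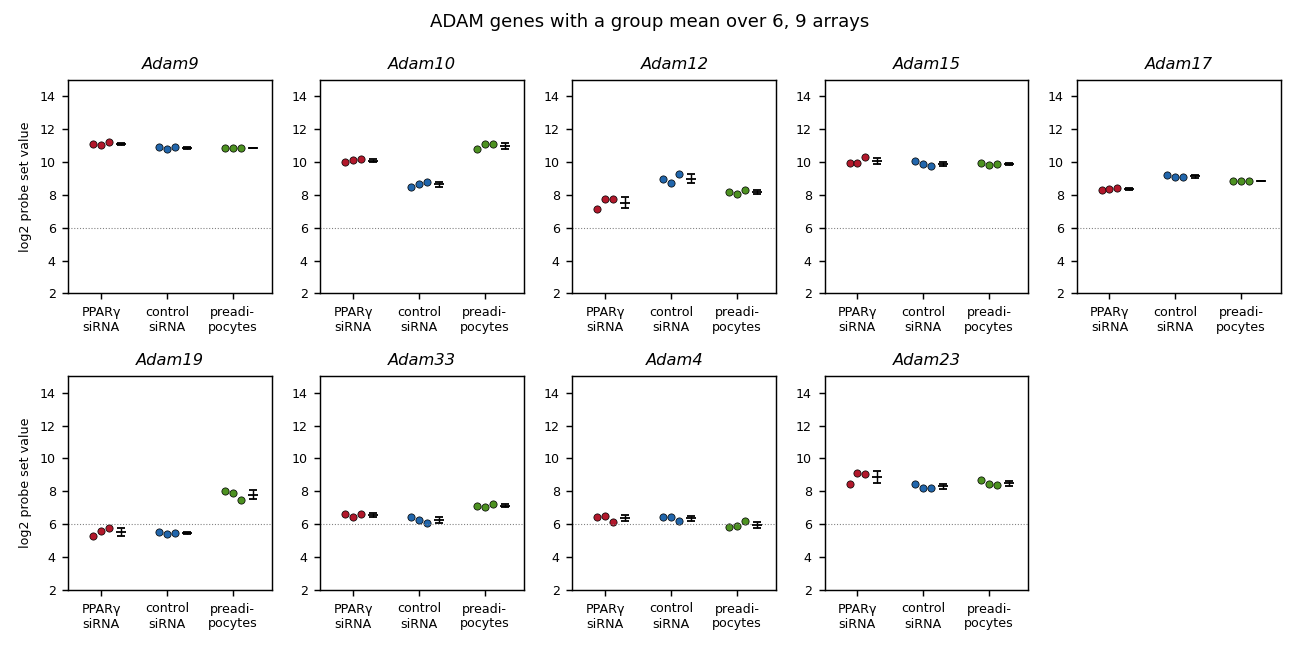
Log2 probe set values of the 9 ADAM genes with a group mean over 6 in each array, with PPAR gamma siRNA adipocytes, control siRNA adipocytes and preadipocytes from left to right. Points are arrays, the bar is the mean ± SD (n = 3) and the dotted line is the limit of 6; Adam10 is lowest with control siRNA, at 8.63 ± 0.13, and Adam17 and Adam12 are lowest with PPAR gamma siRNA, at 8.35 ± 0.04 and 7.53 ± 0.36.

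The 37 genes at or below the limit of 6 were 19 ADAMs, 10 MMPs, 6 ADAMTS genes and 2 ADAMTS-like genes, with highest group means between 3.03 and 5.86. Between the siRNAs, Mmp13 was the only one of them called, where 35.9% of all genes were. In control siRNA adipocytes 7 were called higher and 1, Adam8, lower than in preadipocytes, beside 27.1% and 24.7% of all genes. Adam8, known from leukocytes, had 4.53 ± 0.08 with PPAR gamma siRNA, 4.32 ± 0.15 with control siRNA and 5.85 ± 0.30 in preadipocytes, and both adipocyte groups were below preadipocytes (adjusted p = 2.12e-05 and adjusted p = 2.31e-06). PPAR gamma siRNA adipocytes had 4 of the 37 called against preadipocytes, namely Adam8, Mmp13, Mmp7 and Adamts19, beside 36.5% of all genes. The last rose by 0.40 ± 0.13 (adjusted p = 0.0326), which ended without PPAR gamma siRNA 2 or 3 or preadipocytes 1 or 2 (adjusted p from 0.0503 to 0.117) and after renewed quantile normalisation (adjusted p = 0.0713). These 4 were named after their values were seen. The shares beside these counts are over all genes, of which 56.1% had a group mean over 6. No share over dim genes alone was computed.

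Genes that act with these proteases were counted from 4 lists. Of 23 activators and cell surface regulators, 6 rose and 1 fell with PPAR gamma siRNA relative to control siRNA, beside 19.9% and 16.1% of all genes (median log2 change -0.01, the same as over all genes). Reck, a membrane-anchored inhibitor of MMPs, stood at 7.10 ± 0.24 with PPAR gamma siRNA, 6.11 ± 0.26 with control siRNA and 8.96 ± 0.05 in preadipocytes, a change of 1.00 ± 0.14 between the siRNAs (adjusted p = 0.000219). The plasminogen activator Plat changed by 1.79 ± 0.10 (adjusted p = 1.49e-07). Tspan5 and Tspan17, tetraspanins that bind ADAM10 and guide it through the cell, changed by 1.55 ± 0.15 (adjusted p = 9.47e-06) and 2.71 ± 0.09 (adjusted p = 3.05e-09). Furin, the convertase that activates MMP14, MMP11 and the ADAMs, had 8.36 ± 0.24, 8.15 ± 0.33 and 8.36 ± 0.09 in the 3 groups and was not called in any comparison. The gene called lower was Plg, plasminogen, with group means of 3.72 to 4.28 over the 3 groups and -0.41 ± 0.12 between the siRNAs (adjusted p = 0.0277). That call ended without PPAR gamma siRNA 1 or 3 or control siRNA 1 or 3 (adjusted p from 0.0725 to 0.0769).

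Of 26 other matrix proteases, their cofactors and inhibitors, 9 were higher and 1 lower with PPAR gamma siRNA, beside 19.9% and 16.1% of all genes (median 0.13, and -0.01 over all genes). Pcolce2, an enhancer of procollagen C-proteinase, changed by 2.45 ± 0.25 (adjusted p = 1.16e-05), Bmp1, that proteinase itself, by 2.10 ± 0.13 (adjusted p = 3.15e-07), and Pappa, a metalloprotease that cuts insulin-like growth factor binding proteins, by 2.43 ± 0.12 (adjusted p = 4.68e-08). The lysosomal protease Ctsb was lower at -0.45 ± 0.08 (adjusted p = 0.00108). Of 25 matrix substrates, 15 were higher and 1 lower, beside the same 19.9% and 16.1% (median 0.51). Vcan, or versican, a substrate of ADAMTS1, ADAMTS4 and ADAMTS5, stood at 9.78 ± 0.22 with PPAR gamma siRNA, 7.49 ± 0.12 with control siRNA and 9.68 ± 0.03 in preadipocytes. Comp, the substrate of ADAMTS7 and ADAMTS12, stood at 7.82 ± 0.09, 5.46 ± 0.09 and 5.03 ± 0.06 in the same groups. Lum, lumican, changed by 3.70 ± 0.14 between the siRNAs (adjusted p = 8.31e-09), and Ncan, neurocan, by -0.89 ± 0.10 at group means of 4.17 to 5.09.

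Of 19 cell surface proteins known to be shed, 9 were higher and 1 lower with PPAR gamma siRNA, beside 19.9% and 16.1% of all genes (median 0.25). Dlk1, which ADAM17 sheds to yield a soluble inhibitor of fat cell formation, changed by 1.80 ± 0.20 (adjusted p = 2.43e-05), and Adam17 itself was lower in the same arrays. The hyaluronan receptor Cd44 changed by 1.74 ± 0.14 (adjusted p = 1.70e-06) and the proteoglycan Sdc1 by 1.35 ± 0.11 (adjusted p = 1.85e-06). Il6ra, the interleukin 6 receptor, was lower at -1.06 ± 0.15 (adjusted p = 0.000187). In control siRNA adipocytes against preadipocytes the 4 lists had 6 higher and 7 lower of 23, 2 and 8 of 26, 3 and 13 of 25, and 2 and 12 of 19, in the order described, beside 27.1% and 24.7% of all genes. Cell surface shedding itself was not measured on these arrays.

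Several of these proteases are also made by leukocytes, so markers of other cells were read. Of 7 macrophage markers, Cd68 and Cd14 were higher with PPAR gamma siRNA than with control siRNA, by 1.20 ± 0.22 (adjusted p = 0.00125) and 1.78 ± 0.10 (adjusted p = 8.91e-08). The defining markers Ptprc, Itgam and Adgre1 had group means between 3.20 and 3.85, near the array floor. The linear signals of the 7 summed to between 551.2 and 668.4 with PPAR gamma siRNA, between 296.7 and 313.0 with control siRNA and between 248.1 and 262.4 in preadipocytes. No endothelial marker of 6 was called between the siRNAs. Lower there were 1 of 5 neutrophil markers, S100a8, and 1 of 6 mast cell markers, Cma1. Of all genes, 19.9% were called higher and 16.1% lower between the siRNAs. In control siRNA adipocytes against preadipocytes, 2 macrophage, 1 endothelial, 3 neutrophil and 2 mast cell markers were higher and none lower. The shares of all genes there were 27.1% and 24.7%. The part of other cells in the results was not tested.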

How the data were processed

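The deposited values were read as log2 probe set summaries from their range, as no source used here states the scale. Their array medians were nearly equal as deposited. Per the submitters' processing notes, MAS5, RMA and affy 1.16.0 were used, with no role or order, and no source used here gives the background correction. Groups came from the sample titles.

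No further scaling was applied. The 64 control probe sets were left out. The other 45037 were fitted with limma 3.58.1 in R 4.3.3, with a mean per group over the 9 arrays, moderated variances, two-sided tests and Benjamini-Hochberg adjustment over all 45037 in each comparison. The threshold for a call was an adjusted p of 0.05. The number of arrays limits the precision. Genes were named from the platform annotation: 34945 probe sets had a single symbol, 932 had several and were not used.

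Described genes have a group mean over 6. Array values are given for the 23 of them that were called with a log2 change of at least 1 in size in a comparison, and group means for the other 10. From each of 4 pathway lists, up to 3 called rises and 3 called falls between the siRNAs of largest size were named, with Reck and Furin. The genes, lists and tests were chosen with earlier results of these data known. Promoters are RefSeq sequences of GRCm38.p6, matched by symbol for 41 of the 70 genes.

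Alternatives were renewed quantile normalisation, median centring, fitting each pair of groups alone, robust variances with an intensity trend, filtering out dim probe sets, averaging a gene's probe sets, leaving out x and s probe sets, a replicate block and omission of each array. Chosen after seeing the data were the Actb difference as a covariate and omission of the 2 adipocyte arrays where it was highest. All preadipocyte arrays had a smaller Actb difference than all adipocyte arrays. In comparisons with preadipocytes the covariate therefore cannot be fully separated from the groups. Same-numbered arrays did not deviate together (correlation of deviations from group means -0.19 to 0.17, over 0.1 in 1 of 9 pairs), so the numbers were not treated as pairs.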

Additional observations from a re-analysis of the deposited data

How the results depend on the processing

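Counts of called genes were recomputed under 19 alternatives. Between the siRNAs, the 20 higher became 18 to 24 and the 4 lower became 3 to 6 over all of them. The 13 genes higher with control siRNA than in preadipocytes became 6 after filtering of dim probe sets, which removes dim genes of the 70, and 7 with the Actb difference as a covariate. Without 1 array they were 8 to 14, with 8 without preadipocytes 2. The 10 higher with PPAR gamma siRNA than in preadipocytes became 6 with that covariate and 4 to 12 without 1 array, with 4 without preadipocytes 1 or preadipocytes 2 and 5 without PPAR gamma siRNA 2. The causes were not tested beyond the construction of each setting. The counts of lower genes in these comparisons were 19 to 22 and 18 to 21. The replicate block gave 20 higher and 4 lower between the siRNAs, 13 and 20 for control siRNA against preadipocytes and 8 and 20 for PPAR gamma siRNA against preadipocytes. Apart from Adam4 and Mmp7 against preadipocytes, it changed no call on a named gene. Of 168 changes of named genes, 133 kept their call under every alternative in which they were fitted, and none was reversed. Beside the calls given above, the Actb covariate ended those of Adamts9, Adam4, Plg, Ctsb, Lum and Comp for control siRNA against preadipocytes, those of Adamts1, Adam9, Adam4, Adamts19 and Il6ra for PPAR gamma siRNA against preadipocytes, and that of Plg between the siRNAs. For control siRNA against preadipocytes, Adam4 was then 0.53 (0.38 without the covariate), Plg 0.56 in both fits and Comp 0.39 (0.43 without it), and Plg between the siRNAs was -0.41 in both, so these calls ended with a larger standard error and not with a much smaller difference. Adamts9 became 0.16 (0.27 without it) and, for PPAR gamma siRNA against preadipocytes, Adamts19 became 0.15 (0.40 without it). Between the siRNAs the covariate also added calls for Adam33 (0.39, adjusted p = 0.0279), Adam9 (0.28, adjusted p = 0.0376) and Adamts19 (0.36, adjusted p = 0.0303). Low signal limits what can be said of the 37 dim genes, whose changes can be understated.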
